A study of Arabidopsis thaliana with 20 samples.

Results

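Protein-bound DNA of Arabidopsis leaf chloroplasts was set against unfractionated DNA along the plastid genome. The comparison used 8 of the 20 libraries of the series, 4 of the protein-bound fraction (IPOD) and 4 of input, chosen by their titles and matched by the replicate number in them. IPOD, in vivo protein occupancy display, crosslinks protein to DNA and recovers the fragments that carry protein, of whatever kind. Both fractions came from wild-type Col-0 plants 14 days old, raised on soil at 22 °C with 16 h of light (100 umol m-2 s-1) and 8 h of darkness. Chloroplasts were isolated from 5 g of rosette leaves and crosslinked afterwards, in 4% formaldehyde for 4 h. The fraction sequenced was the difference between the groups that the labels give. The labels do not say whether the 4 numbers stand for separate batches of plants, so the p-values measure the spread between these libraries, which may be technical. The leaf label was not checked against markers, because depth on plastid DNA carries no marker of a tissue.

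The plastid genome is a circle in which a large and a small single copy region are separated by both copies of an inverted repeat, and the repeat holds the ribosomal RNA operon. The DNA is packed with protein into nucleoids that are partly bound to the thylakoid membrane. It is transcribed by a bacterial-type polymerase whose core is encoded in the plastid (genes rpoA, rpoB, rpoC1 and rpoC2) and by phage-type polymerases encoded in the nucleus. In leaves the rRNA operon, many tRNA genes, psbA and rbcL are known as strongly transcribed. The comparison asks which of these genes and regions were recovered with protein above or below their level in input.

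Mean depth ran from 54.5 to 1078 reads per base over the 4 IPOD libraries and from 138 to 3383 over the 4 input libraries. Depth is given below as a multiple of the mean of the library, and the ratio as the log2 of IPOD over input. The deposited depths cover both copies of the repeat, and the difference between the copies was taken as the counting noise of the ratio. In 50 bp bins its standard deviation (SD) was 0.138, 0.212, 0.038 and 0.0307 on the log2 scale in pairs 1 to 4. The ratio itself had an SD over the same 504 bins of 0.519, 0.532, 0.422 and 0.128.

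Libraries 1 and 3 resembled each other more than they did libraries 2 and 4, in both fractions. Within the repeat the difference between IPOD libraries 1 and 3 had a variance of 1.55 times the counting noise, and that between input libraries 1 and 3 of 5.38 times. All other pairs of the same fraction lay between 11.6 and 431 times. The difference between libraries 1 and 3 had a correlation between the repeat copies of 0.42 in IPOD and 0.82 in input. The difference was thus larger than the noise seen between the copies. Noise that both copies share is not part of that estimate, and the placement of reads from the repeat is not given. That does not show separate preparations, on which the labels are silent. The libraries were counted as 2 samples. Because they are so alike, calls are also given with 1 and 3 averaged into 1 sample, an alternative chosen after seeing the data. No label names a batch that would set these numbers apart. Values within libraries 1 and 3 and within 2 and 4 stand beside the results.

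This likeness also bears on whether equal numbers pair the libraries. The deviation of each IPOD library from the group mean had a correlation over 2564 bins of 0.84, 0.81, 0.92 and 0.63 with that of the input of the same number. Unequal numbers gave values from -0.88 to 0.88, and the highest was IPOD 3 with input 1. IPOD library 1 had 0.80 with input 3, against 0.84 with its own input. For numbers 2 and 4 the own input stood higher, at 0.81 and 0.63 against 0.29 and 0.27 for the exchanged inputs. The numbers thus separate 2 from 4 more clearly than 1 from 3. Bins share their library and their neighbours, so these correlations describe likeness only.

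**Figure D1:**
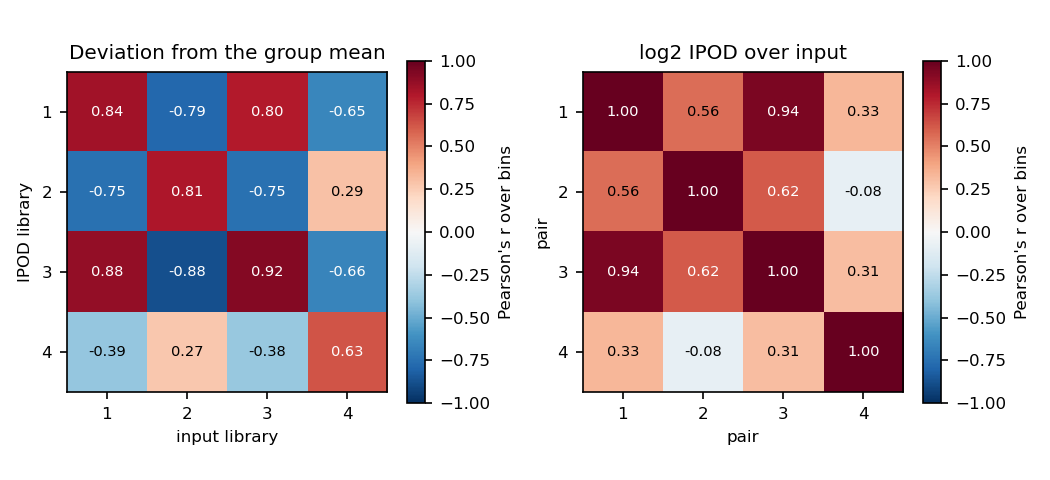
Left, Pearson's r over 2564 bins between the deviation of each IPOD library from the IPOD mean (vertical axis) and that of each input library from the input mean (horizontal axis), where r is 0.84, 0.81, 0.92 and 0.63 on the diagonal. Right, r between the log2 IPOD over input ratios of the 4 pairs, where pairs 1 and 3 have 0.94 and pairs 2 and 4 have -0.08.

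The pairs did not give the same profile. Over bins the ratio of pair 1 had a correlation of 0.94 with pair 3 and of 0.56 with pair 2, and pair 2 had 0.62 with pair 3. Pair 4 had 0.33 with pair 1, 0.31 with pair 3 and -0.08 with pair 2. Pair 4 was also the flattest, with 8 bins above a ratio of 0.5, where pairs 1, 2 and 3 had 353, 312 and 307. Its ratio was higher where input was deeper, with a correlation of 0.39 between the ratio and the log2 input depth over bins, whereas pairs 1, 2 and 3 had -0.36, -0.27 and -0.33. The part of input depth in the ratios was not tested beyond the fit with this trend removed, which is given below.

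Most of the genes with the highest ratios were tRNA genes. In the fit that pairs libraries by number, 16 of 112 genes were higher in IPOD than in input, which is 14.3% of the genes tested, and 3 were lower, which is 2.68%. The 16 were 12 of 30 tRNA genes, all 3 measured rRNA genes and psbA, which encodes the D1 protein of photosystem II. The lower ones were the ribosomal protein genes rps15 and rps3, and ycf1 (Arthcp087), which encodes a subunit of the protein import machinery of the inner envelope. The mean ratio over 4 pairs of the 16 ran from 0.29 to 0.92 on the log2 scale.

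These calls came from limma with Benjamini-Hochberg adjustment over all genes, and they depended on the pairing and on the pairs kept. The unpaired limma fit called 0 genes higher and 0 lower, and 8 and 2 passed an unadjusted p of 0.05 (lowest adjusted p 0.243). The paired fit called 0 and 0 without pair 1, 2 or 3 (at an unadjusted p of 0.05 there were 17 and 3 without pair 1, 25 and 15 without pair 2, and 22 and 4 without pair 3), and 35 and 28 without pair 4. With libraries 1 and 3 averaged into 1 sample it called 0 and 0 (21 and 4 unadjusted), and the lowest adjusted p was 0.123. Removing the trend with input depth in each pair also gave 0 and 0 (23 and 10 unadjusted). Libraries 1 and 3 alone called 37 genes higher and 47 lower, which is 33% and 42% of the genes, and libraries 2 and 4 alone called 0 and 0 (0 and 0 unadjusted). Below, a gene is named as called where it passed the paired fit of all 4 pairs.

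**Figure D2:**
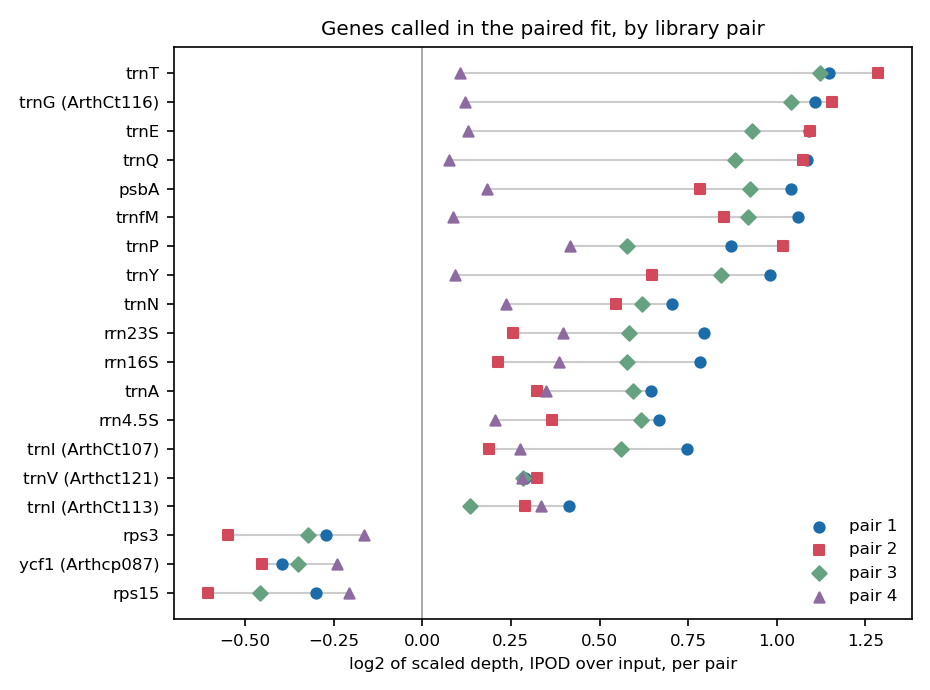
The log2 ratio of scaled depth, IPOD over input (horizontal axis), of the 19 genes called in the paired fit, with 1 point for each of pairs 1 to 4. Pair 4 is the lowest point of each of the 9 genes from trnT to trnN and lies at or below 0.42 throughout, while all 4 pairs are above 0 for the 16 higher genes and below 0 for the 3 lower ones.

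The tRNA genes, which supply the adaptors of plastid translation, were the class with the most calls. The median ratio of the 30 genes was 0.44, against -0.063 over all 112 genes, and the mean over pairs was above 0 for 30 of 30. The ratio was above 0 in 4 of 4 pairs for 18 tRNA genes, where 25 of all 112 genes, or 22.3%, showed this. None was called lower, where 3 of all 112 genes, or 2.68%, were. In pairs 1, 2 and 3 the median tRNA gene stood at 0.56 in each, with 28, 29 and 30 of 30 genes above 0, whereas in pair 4 it stood at 0.075 with 19 of 30 above 0 and 0 above 0.5. The class was spread over the circle, with a median of 0.43 for the 22 genes of the large single copy region and of 0.44 for the 7 of the repeat. The 6 tRNA genes of over 100 bp, which range up to 2631 bp and include introns, had a median of 0.39, and the 24 shorter ones 0.50.

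The gene with the highest ratio was trnT, a threonine tRNA gene of 72 bp. Its depth was 2.98, 3.72, 2.0 and 1.02 times the library mean in IPOD libraries 1 to 4, against 1.29, 1.47, 0.86 and 0.937 in input libraries 1 to 4. The lowest IPOD library, 4, lay below inputs 1 and 2, so the fractions overlapped, but each IPOD library was above its own input. The log2 ratio was 0.92 ± 0.54 (SD, n = 4), 1.14 within libraries 1 and 3 and 0.70 within 2 and 4. The adjusted p was 0.0277 paired and 0.483 unpaired.

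The neighbours of trnT on the circle, trnE and trnY, were also called. The gene trnE encodes the glutamate tRNA that also starts the synthesis of chlorophyll and haem. Its depth was 2.42, 5.60, 2.14 and 1.36 times the mean in IPOD libraries 1 to 4, against 1.08, 2.58, 1.07 and 1.24 in the inputs. Number 2 was the deepest in both fractions, and the ratio of pair 2 was 1.09, the same as that of pair 1. The gene trnY, for tyrosine, was one of 5 genes, or 4.46% of those tested, whose 4 IPOD libraries all lay above the 4 inputs. Its depth was 1.92, 1.84, 1.74 and 1.19 times the mean in IPOD, against 0.918, 1.14, 0.922 and 1.10 in input. The ratio was 0.81 ± 0.46 for trnE and 0.64 ± 0.39 for trnY (SD, n = 4). For trnE the adjusted p was 0.0277 paired and 0.545 unpaired, and for trnY it was 0.0281 paired and 0.243 unpaired.

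Another pair of neighbours, trnG (ArthCt116) for glycine and trnfM for the initiator methionine, had ratios of 0.86 ± 0.49 and 0.73 ± 0.44. The glycine gene stood at 2.67, 3.27, 2.29 and 1.29 times the mean in IPOD libraries 1 to 4 and at 1.18, 1.42, 1.06 and 1.18 in the inputs. The glutamine gene trnQ had the highest mean depth of the called genes in IPOD, at 3.36, 6.59, 2.76 and 1.61 in libraries 1 to 4, against 1.52, 3.08, 1.45 and 1.52 in the inputs, and its ratio was 0.78 ± 0.48. In pairs 1 to 3 these 3 genes lay between 0.85 and 1.16, and in pair 4 between 0.075 and 0.12. The proline gene trnP kept more of its ratio in pair 4, with 0.87, 1.02, 0.58 and 0.42 in pairs 1 to 4, and was at 0.72 within libraries 1 and 3 and at 0.72 within 2 and 4. All 4 genes had 0.0277 as their adjusted p in the paired fit, against 0.266 for trnG, 0.483 for trnP and 0.545 for trnfM and trnQ in the unpaired fit.

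In the repeat, the pairs were closer to each other for some tRNA genes than in the large single copy region. The valine gene trnV (Arthct121), upstream of rrn16S, had a ratio of 0.29, 0.32, 0.28 and 0.28 in pairs 1 to 4, the smallest SD of the called genes at 0.019. The counting noise of a 50 bp bin of the repeat was larger in every pair, from 0.0307 in pair 4 to 0.212 in pair 2. So small an SD is therefore no measure of how closely the pairs agree. Its depth was 1.11, 2.01, 1.05 and 1.63 times the mean in IPOD, against 0.878, 1.59, 0.836 and 1.33 in input, so libraries differed far more than fractions did. The isoleucine gene trnI (ArthCt113), outside the operon, had all IPOD libraries above all inputs, at 1.49, 1.47, 1.22 and 1.43 against 1.08, 1.18, 1.09 and 1.11. Its ratio was 0.29 ± 0.12 (adjusted p 0.0455 paired, 0.483 unpaired). The asparagine gene trnN had 0.53 ± 0.20, at 0.70, 0.55, 0.62 and 0.24 in pairs 1 to 4. The leucine gene trnL (ArthCt126) of the repeat was not called, with -0.02, -0.17, 0.20 and 0.29 in pairs 1 to 4. The lowest tRNA gene was trnK in the large single copy region, whose intron holds matK, with 0.02 ± 0.10.

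All 3 measured ribosomal RNA genes were called. The gene rrn16S, for the RNA of the small ribosomal subunit, stood at 0.689, 3.80, 0.686 and 1.70 times the library mean in IPOD libraries 1 to 4, against 0.352, 3.26, 0.419 and 1.28 in the inputs. The gene rrn23S, for the large subunit, stood at 0.775, 3.78, 0.729 and 1.61 against 0.398, 3.15, 0.445 and 1.20. Libraries 1 and 3 were below their mean at both genes in both fractions and library 2 was above 3 in both, so libraries differed more than fractions, while the ratio was above 0 in every pair. The ratio was 0.49 ± 0.25 for rrn16S, 0.51 ± 0.23 for rrn23S and 0.46 ± 0.22 for rrn4.5S (SD, n = 4). Their adjusted p was 0.0277 in the paired fit, against 0.691, 0.675 and 0.642 in the unpaired one. Pair 2 was the lowest for rrn16S and rrn23S, at 0.21 and 0.26, and pair 1 the highest, at 0.78 and 0.80. Because the level differs so much between libraries, leaving out a library without its partner moved the ratio of rrn16S to between 0.012 and 1.06, whereas leaving out whole pairs kept it between 0.39 and 0.58.

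The tRNA genes inside the operon behaved like the rRNA genes around them. The spacer between rrn16S and rrn23S holds trnI (ArthCt107) and trnA, for isoleucine and alanine, with introns. Their ratios were 0.44 ± 0.26 and 0.48 ± 0.16 (adjusted p 0.0372 and 0.0277, paired). Among the 3 equal parts of rrn16S the part next to trnV had 0.64 ± 0.30, above the other parts at 0.36 ± 0.24 and 0.43 ± 0.25, and it was the highest part in pairs 1, 2 and 3 but not in pair 4. In rrn23S the 3 parts differed by less than their SD, at 0.50, 0.45 and 0.57. The arginine gene trnR (ArthCt127) on the far side of the operon ran from 0.089 in pair 2 to 0.92 in pair 1 and was not called.

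The shares of depth were also compared by kind of DNA. Of all depth, 2.57%, 12.9%, 2.47% and 5.61% fell on the measured rRNA genes in IPOD libraries 1 to 4, against 1.32%, 10.9%, 1.51% and 4.21% in the inputs, while they hold 3.43% of the positions. The tRNA genes took 7.62%, 11.01%, 7.24% and 6.16% in IPOD against 5.01%, 7.99%, 4.94% and 5.83% in input. Protein-coding genes took 55.9%, 45.8%, 56.8% and 62.7% in IPOD against 62.4%, 55.5%, 62.7% and 62.2% in input, so pair 4 was the pair without a lower share in IPOD. DNA between measured genes had a higher share in IPOD in pairs 1 to 3 and a lower one in pair 4, with log2 ratios of 0.12, 0.24, 0.12 and -0.12.

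**Figure D3:**
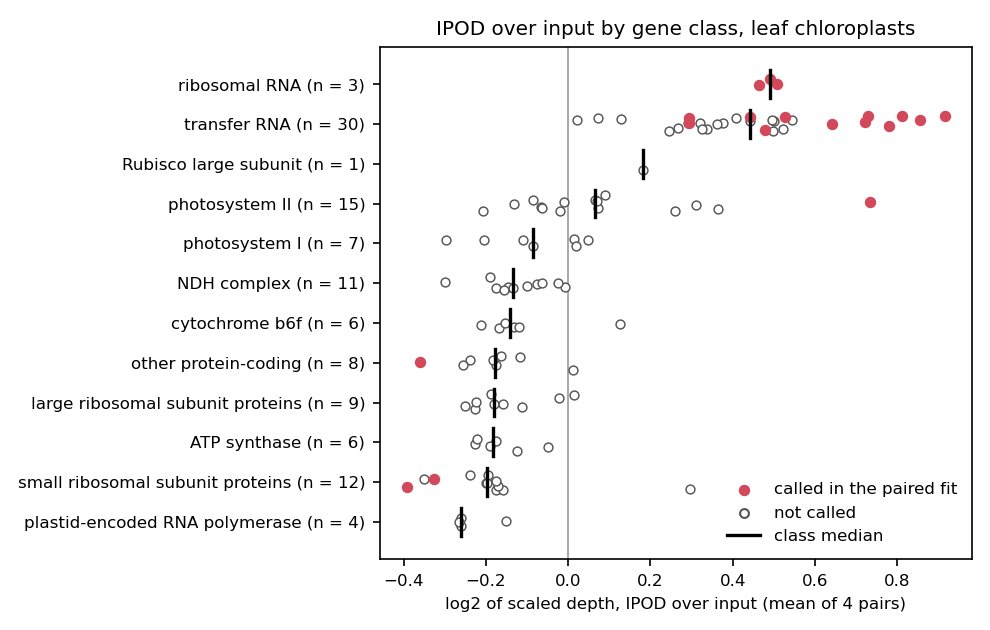
Mean log2 ratio of scaled depth over 4 pairs, IPOD over input (horizontal axis), of each of 112 genes by class, with filled points for genes called in the paired fit, open points for the others and a bar at the class median. All 30 tRNA genes and 3 rRNA genes lie above 0, and the medians of the classes below photosystem II lie between -0.086 and -0.26.

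Among the 79 protein-coding genes, psbA had the highest mean ratio and the highest ratio in each of pairs 1 to 3. In pair 4 the highest was rps7 at 0.26, and psbA had 0.18. The depth of psbA was 2.02, 1.64, 1.94 and 1.16 times the library mean in IPOD libraries 1 to 4, against 0.926, 0.916, 0.967 and 1.01 in the inputs. The 4 inputs were within a narrow range and all 4 IPOD libraries lay above them. The mean was 1.69 ± 0.39 in IPOD and 0.954 ± 0.042 in input (SD, n = 4 each), and the log2 ratio was 0.73 ± 0.38, with 0.98 within libraries 1 and 3 and 0.48 within 2 and 4. The adjusted p was 0.0277 paired and 0.243 unpaired, which psbA and trnY shared as the lowest of the unpaired fit. The ratio increased along the gene, from 0.62 ± 0.36 in the part next to trnH to 0.70 ± 0.37 and 0.86 ± 0.42 in the part next to trnK, and in each of the 4 pairs the parts stood in this order.

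The other photosystem II genes reached smaller ratios. The median of the 15 genes was 0.064, with 1 called higher and 0 lower, and 8 of 15 above 0. The genes psbD and psbC, which overlap and encode the D2 and CP43 proteins, had IPOD libraries all above the inputs. The gene psbC stood at 1.31, 1.24, 1.19 and 1.21 times the mean in IPOD, against 0.875, 1.07, 0.872 and 1.09 in input. The log2 ratio was 0.31 ± 0.18 for psbC and 0.26 ± 0.18 for psbD, and neither was called (adjusted p 0.0591 and 0.0775, paired). The lowest of the class was psbT, a small subunit, with -0.21 ± 0.12. The genes psbC and psbD were named after their values were seen, for their lack of overlap.

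The gene rbcL, which encodes the large subunit of Rubisco, had depths of 1.04, 1.26, 1.08 and 1.20 times the mean in IPOD and of 0.742, 1.30, 0.862 and 1.13 in input. The fractions overlapped, pair 2 was below 0 at -0.05, and the ratio of 0.18 ± 0.21 was not called (adjusted p 0.164 paired, 0.642 unpaired). The photosystem I genes had a median of -0.086 with 0 of 7 called, from psaI at -0.30 ± 0.20 to psaA at 0.05 ± 0.14. The cytochrome b6f genes had a median of -0.14, from petB at -0.21 ± 0.12 to petN at 0.13 ± 0.10. The 6 ATP synthase genes had a median of -0.18, from atpF at -0.23 ± 0.049 to atpE at -0.05 ± 0.040, and the 11 NDH genes, for the NADH dehydrogenase-like complex, had a median of -0.13, from ndhB at -0.30 ± 0.40 to ndhC at -0.0067 ± 0.098. None of these genes was called. When libraries were scaled to their median instead of their mean, the median of all genes moved from -0.063 to 0.047, and atpE and ndhC were then above 0, at 0.06 and 0.10.

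Genes for the proteins of the gene expression machinery had class medians below those of the tRNA and rRNA genes. The 4 subunits of the plastid-encoded polymerase had the lowest class median, -0.26, with none called. Depth at rpoB was 0.722, 0.657, 0.763 and 1.06 times the mean in IPOD libraries 1 to 4, against 0.933, 0.924, 0.937 and 1.01 in the inputs. Pairs 1 to 3 were below 0 and pair 4 was at 0.05, and the ratio was -0.26 ± 0.22 (adjusted p 0.0877, paired). The gene rpoC2 had -0.27 ± 0.16 and rpoA -0.15 ± 0.10. The 9 genes for proteins of the large ribosomal subunit had a median of -0.18, with 0 called, from rpl22 at -0.25 ± 0.11 to rpl33 at 0.01 ± 0.098. The 12 for the small subunit had -0.20 with 2 called lower, and the highest, rps14, stood at 0.30 ± 0.27 and was not called.

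The 3 lower genes were below 0 in 4 of 4 pairs, as were 29 of all genes, or 25.9%. The gene ycf1 (Arthcp087) had depths of 0.779, 0.711, 0.859 and 0.916 times the mean in IPOD, against 1.04, 0.992, 1.11 and 1.10 in input. The gene rps15, for a protein of the small ribosomal subunit, had 0.917, 0.696, 0.865 and 1.05 against 1.14, 1.09, 1.21 and 1.23. For these 2 genes, 1.79% of those tested, all IPOD libraries lay below all inputs, and both lie in the small single copy region. The ratio was -0.36 ± 0.090 for ycf1 and -0.39 ± 0.18 for rps15. Both had an adjusted p of 0.0277 paired and 0.483 unpaired. Only the 4329 bp of ycf1 (Arthcp087) before the dropped repeat copy were measured. The ycf1 entry in the kept copy (ArthCp070, 1032 bp) had -0.18 ± 0.28 and was at 0.17 in pair 4. It was not called (adjusted p 0.228, paired). The gene rps3, also for a protein of the small subunit, lies in the large single copy region and had -0.33 ± 0.16 (adjusted p 0.0455 paired, 0.578 unpaired). The gene accD, for a subunit of the acetyl-CoA carboxylase of fatty acid synthesis, stood at -0.24 ± 0.096 and was not called (adjusted p 0.0646, paired), and matK, for an intron maturase, at 0.01 ± 0.087. Under median scaling with the pairing, 1 gene was called lower.

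**Figure D4:**
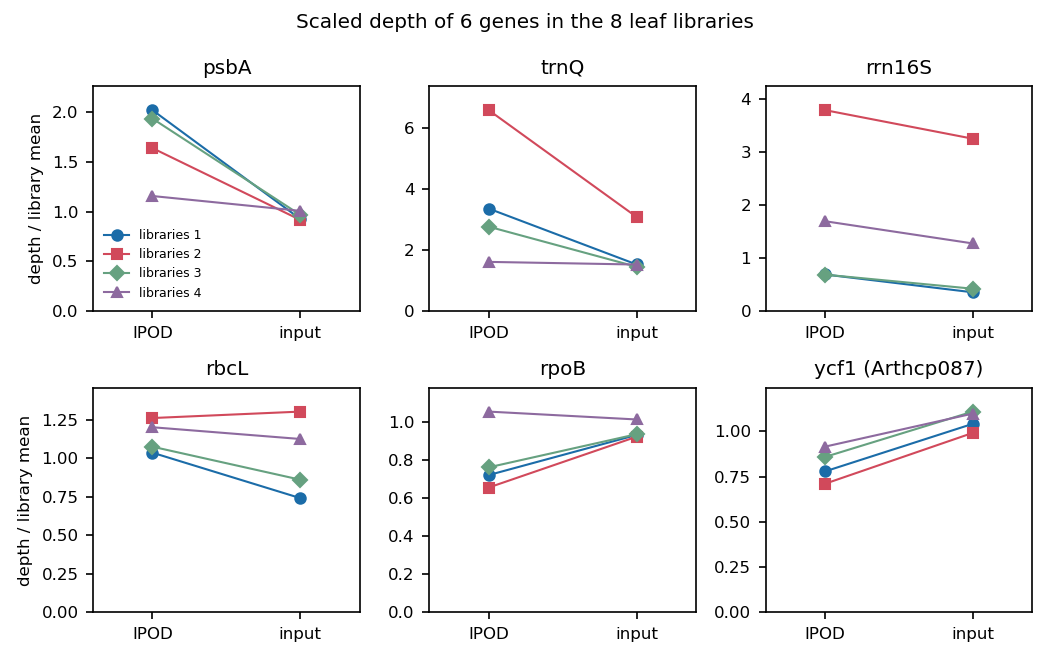
Depth as a multiple of the library mean (vertical axes, from 0) in IPOD (left) and input (right) of 6 genes, with a line for each library number. At psbA all 4 IPOD points lie above the inputs, at rrn16S library 2 is near 3 or above in both fractions, and at ycf1 (Arthcp087) all 4 IPOD points lie below the inputs.

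The small single copy region took a smaller share of IPOD than of input in each pair. It held 12.3%, 9.94%, 13.0% and 11.6% of the depth in IPOD libraries 1 to 4, against 15.2%, 11.1%, 15.4% and 13.4% in the inputs. The mean share was 11.7% ± 1.31 in IPOD and 13.8% ± 1.99 in input, and the log2 ratio was -0.23 ± 0.060 (SD, n = 4). In exact two-sided permutation tests the paired p was 0.125, the smallest that 4 pairs allow, and the unpaired p was 0.171. The large single copy region had 0.06, 0.06, 0.05 and -0.07 in pairs 1 to 4. The repeat outside the rRNA operon had -0.18, -0.36, -0.18 and 0.21, so pair 4 went the other way. Genes were placed by their end with the lower position, and 7 protein-coding genes fell in the repeat by that end. Their median was 0.19 in pair 4 and -0.33, -0.56 and -0.21 in pairs 1 to 3. They include ndhF, placed there by that end alone, which had -0.09 in pair 4.

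In bins of 50 bp the paired limma fit called 130 of 2564 enriched, which is 5.07%, and 35 depleted, which is 1.37%, at a lowest adjusted p of 0.0391. The unpaired limma fit called 0 and 0, and 80 and 28 passed an unadjusted p of 0.05. With libraries 1 and 3 averaged into 1 sample the paired fit called 0 and 0 (277 and 192 unadjusted). It also called 0 and 0 without pair 1 (254 and 177 unadjusted) and without pair 3 (274 and 184 unadjusted). The paired counts rest on a scale too. Dividing by the mean over both repeat copies in place of the kept positions gave 0 and 0 (383 and 573 unadjusted), and the lowest adjusted p was 0.0563. Without regard to a test, the ratio was above 0 in 4 of 4 pairs in 325 bins, or 12.7%, and below 0 in 664, or 25.9%. The mean over both copies was computed first, and the mean over kept positions was adopted after seeing that the counts differ.

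The called bins lay unevenly over the kinds of DNA. Of the 88 bins in measured rRNA genes 44.3% were enriched, of the 138 in tRNA genes 19.6% and of the 1558 in protein-coding genes 1.22%. Of the 780 bins between measured genes, 5.77% were enriched. No bin in an rRNA or tRNA gene was depleted. The depleted share was 1.28% in protein-coding genes, 1.92% between genes and 1.37% over all bins. At such shares few depleted bins are to be expected in rRNA and tRNA genes, so their absence says little. The enriched bins formed 29 regions, 18 in the repeat and 11 in the large single copy region, and the ratio had the same sign in 4 pairs in 26 of them. The depleted bins formed 17 regions, 9 in the large and 8 in the small single copy region, all with the same sign in 4 pairs. The paired fit selects bins whose pairs agree, so the same signs follow in part from that selection and are no separate support. Of the 35 depleted bins, 22 were in the small single copy region. The large single copy region holds 65.6% of the kept positions, the repeat 20.5% and the small single copy region 13.9%.

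The longest enriched region spanned 1050 bp, from 501 to 1550 of the chloroplast sequence of TAIR10, over psbA and the start of its gap to trnK. Its highest bin, 1501 to 1550, lay outside the gene and was the highest of all bins, with 1.43, 1.85, 1.15 and 0.14 in pairs 1 to 4. Another high point without a gene was 42001 to 42100 between psaA and ycf3, with 1.44, 1.70, 1.11 and 0.05. A further one was 31701 to 31750 between trnT and psbD, with 1.51, 1.27, 1.28 and -0.09. In pairs 1 to 3 these places lay between 1.11 and 1.85, while pair 4 lay between -0.09 and 0.14. Region 47451 to 47800, mostly between trnL (ArthCt101) and trnF, was at 1.25, 1.23, 1.13 and -0.04.

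In the enriched regions of the repeat pair 4 was above 0. The ratio of pair 4 was also above 0 over the whole repeat, at 0.26, and in the repeat outside the rRNA operon, at 0.21. Region 100801 to 101550, over the beginning of rrn16S on the side of trnV, had 0.97, 0.63, 0.68 and 0.37 in pairs 1 to 4. Regions inside rrn23S, 106501 to 106800 and 107151 to 107500, had 0.36 and 0.48 in pair 4, and 104351 to 104650, mostly in trnA, had 0.42. Between trnR (ArthCt127) and trnN, 108451 to 108650 held no gene and had 0.88, 0.97, 0.79 and 0.21. In the large single copy region, 36401 to 36800 over trnG (ArthCt116) and trnfM had 0.05 in pair 4 and 30301 to 30550 over trnY and trnE had 0.10, but 66401 to 66600 over trnP had 0.37.

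The depleted regions were shorter, with a median length of 100 bp against 200 bp for the enriched ones. Region 123601 to 123800, in the gap between rps15 and ycf1 (Arthcp087), had -0.56, -0.75, -0.55 and -0.68 in pairs 1 to 4. Inside ycf1, 124001 to 124350 had -0.59, -0.55, -0.44 and -0.44, and 125801 to 125950 had -0.54, -0.64, -0.65 and -0.74. The lowest of all bins, 112851 to 112900 between ndhF and rpl32, had -0.88, -0.28, -0.69 and -1.05. In each of these 4 places pair 4 was lower than at least 1 of the other pairs, whereas it had the smallest ratio in the named enriched regions outside the repeat. Region 65301 to 65400 between psbE and petL had -0.77, -0.10, -0.71 and -0.69.

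The sides of genes were examined next, because promoters lie before the start of a gene. The gene table gives no strand, so both sides were first taken alike. For tRNA genes the 200 bp on each side had a median ratio of 0.37 against 0.44 in the genes, and 19 of 30 genes lay above their sides. For protein-coding genes with a free side the sides had -0.20 and the genes -0.15, and 44 of 73 genes lay above their sides. In the mean over pairs, lying above the sides was thus not particular to tRNA genes. The median of gene minus sides was 0.11, 0.0081, 0.091 and 0.10 in pairs 1 to 4 for tRNA genes. For protein-coding genes it was 0.063, -0.14, 0.034 and 0.15, so pair 2 went the other way. A read covers many neighbouring bases, so a tRNA gene and its sides share reads.

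For 11 protein-coding genes the side of the start is known from textbook maps, and these were chosen after seeing the data. The 200 bp before the start had a mean ratio of 0.92 at psbA, 0.74 at psbE (cytochrome b559), 0.69 at psaA, 0.64 at rbcL, 0.52 at psbB (CP47) and 0.24 at clpP (a protease subunit). The values were 0.11 at psbD, -0.03 at accD, -0.27 at atpB, -0.34 at rpoB and -0.39 at ndhF. The side of the start lay above the gene itself in 7 of 11 genes. At psaA it had 0.93, 1.05, 0.78 and -0.0026 in pairs 1 to 4, while the gene had 0.10, -0.16, 0.10 and 0.15. At rbcL it had 0.77, 1.11, 0.73 and -0.07, and at psbE 0.93, 1.33, 0.68 and 0.02. The high values before these genes thus came from pairs 1 to 3, and pair 4 stood near 0. The photosystem genes psaA, psbE and psbB had ratios of 0.05, 0.07 and -0.07 in the gene, below those before the start. At psbA the gene had 0.73 and the 200 bp before it 0.92.

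**Figure D5:**
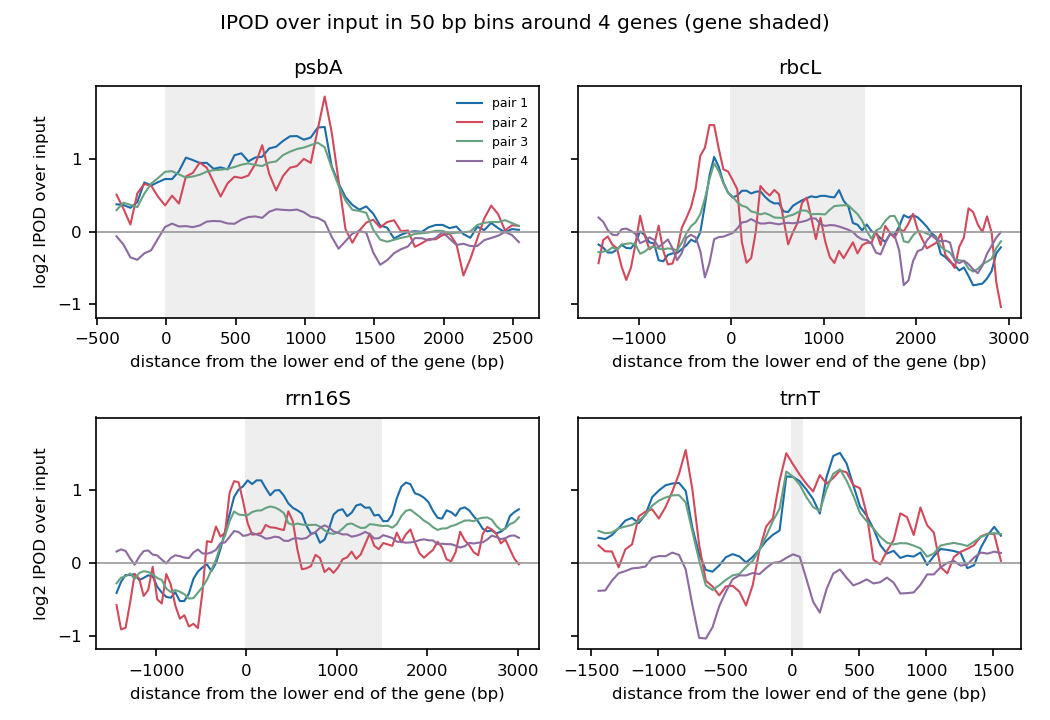
The log2 ratio of IPOD over input in 50 bp bins around psbA, rbcL, rrn16S and trnT (vertical axes), by distance in bp from the end of the gene with the lower position (horizontal axes), with the gene shaded and a line for each pair. Pairs 1 to 3 reach 1.15 or more in the bin beyond psbA and also peak before rbcL and over trnT, pair 4 has no such peak and dips below 0 beside these places, and at rrn16S all 4 lines are above 0 at the edge next to trnV.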

How the data were processed

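Depth per base of the plastid genome in 4 IPOD and 4 input libraries was used. The deposited values are a coverage signal, in whole reads over each of 154477 positions, 1 column per library and unscaled between libraries, on TAIR10 per the file headers. Trim Galore 0.4.1, Bowtie2 2.2.8.9 and bedtools 2.25.0 are named, per the submitters' processing notes; read length, filters and the placement of reads from the repeat are not given in the sources used here. A read covers many neighbouring bases, so no count model was used. Intervals for depth were not computed, since the number of reads behind a gene is unknown.

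Libraries were grouped by title. Genes were taken from a TAIR10.1 table without strand, by name and neighbours. Its numbering was checked on the repeat: the mirrored positions of 11 of 11 genes in both copies had a sum of 238649, and the depth of 8 of 8 libraries was most alike between the copies there. The copy from 84171 to 110436 was kept and positions from 128213 on were dropped, which left 128212 positions. They were divided into 2564 bins of 50 bp. Genes, with their introns, were taken from 70 bp up and cut where the kept positions end, which gave 112. Depth was divided by the library mean over kept positions, 10% of the median bin was added and log2 taken; a ratio on this scale understates changes at low depth.

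The 2 fractions were compared with limma 3.58.1 (R 4.3.3), unpaired as planned, two-sided. A call needs an adjusted p below 0.05, with Benjamini-Hochberg adjustment over every bin or every gene. In the check given in the text every r between equal numbers was over 0.1. Some unequal numbers passed this too, such as IPOD 3 with input 1 at 0.88, so the check does not settle the pairing. A paired fit, with a term for each number, stands beside the unpaired one. Tables and plots were made with Python 3.11.15, numpy 2.4.6, pandas 2.3.3 and matplotlib 3.10.9. The fits were also run on simulated data with independent pairs and independent bins. That run does not bear on the likeness of libraries 1 and 3, on neighbouring bins or on whether the numbers pair the libraries.

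Named genes were those called in either fit, the highest and lowest of each class of 3 or more, and psbA, rbcL, rrn16S, rrn23S, rpoB and accD; named regions were the 8 enriched and 5 depleted with the largest summed change, and the rest were chosen for mention once their values were known. The libraries, gene classes and lists were chosen with earlier results of these data known. Sides of genes were planned by strand and were taken by position instead; the side of the start of 11 genes was set from general knowledge. Alternatives were other scaling, pseudocounts, a variance trend, both repeat copies, 200 bp bins, removal of the input trend, and leaving out libraries or pairs. No sequence is shown.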

Additional observations from a re-analysis of the deposited data

Results flagged for a closer look

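Values over the 4 pairs were examined for a pair that stands far from the other ones, by Dixon's test of the gap to the nearest value over the whole range. Among 60 genes, regions and parts of the genome examined, 10 had such a pair. Chance alone flags about 1 in 20 groups where the 4 values are independent. That rate does not apply here, because the ratios of pairs 1 and 3 were nearly alike (r 0.94 over bins). Some items also overlap, such as trnG and the region over it. The count of 10 therefore cannot be set against chance.

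Pair 4 was the outlying pair in 7 of the 10. It had 0.11 at trnT, 0.12 at trnG (ArthCt116), 0.13 at trnE and -0.12 at matK. It had -0.036 in the enriched region 47451 to 47800 beside trnL (ArthCt101), 0.054 in the region 36401 to 36800 over trnG and trnfM, and -0.065 in the large single copy region as a whole. In each of these the other 3 pairs were higher and close together.

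The other cases were of other pairs. Pair 2 had -0.16 at psaA, pair 1 had -0.41 at rpl22, and pair 2 had -0.10 in the depleted region 65301 to 65400 between psbE and petL.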

How the results depend on the processing

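The counts of calls depended on the pairing and on the libraries. The unpaired fit called 0 bins and 0 genes under median scaling, pseudocounts of 1% or 50%, a robust variance trend, both repeat copies, libraries 2 and 4 alone and libraries 1 and 3 averaged, and 0 bins with a width of 200 bp. Leaving out 1 library gave 0 to 26 enriched and 0 depleted bins, and 0 to 4 higher and 0 lower genes, with the highest counts without IPOD library 4. The filter on low depth removed nothing and no gene was under the length limit, so those alternatives changed nothing.

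With the replicate block, which pairs libraries by number, the calls were 130 bins enriched, 35 bins depleted, 16 genes higher and 3 genes lower. Leaving out 1 pair gave 0 to 417 enriched and 0 to 427 depleted bins (182 and 147 without pair 2), and 0 to 35 higher and 0 to 28 lower genes. Median scaling with the block gave 188 and 10 bins and 17 and 1 genes. Removing the input trend with the block gave 148 and 132 bins and 0 and 0 genes. The library mean over both copies with the block gave 0 and 0 bins and 16 and 5 genes. Averaging libraries 1 and 3 with the block gave 0 and 0 of each. Libraries 1 and 3 alone called 553 and 1079 bins and 37 and 47 genes without the block, and 597 and 1317 bins and 39 and 51 genes with it. Libraries 2 and 4 alone with the block called 0 and 0 bins (51 and 39 unadjusted) and 0 and 0 genes (1 and 0 unadjusted). The cause of these differences was not tested. Median scaling with the block, the averaging, and the use of the mean over kept positions in place of the mean over both copies were chosen after seeing the data.

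Of the 38 named genes, 7 had a ratio near 0 that changed sign, and none of these was called. With and without the block, median scaling gave 0.0602 for atpE and 0.1031 for ndhC. Removing the input trend with the block gave 0.0055 for atpE and 0.058 for ndhC. A pseudocount of 1% gave 0.0019 for ndhC, and one of 50% gave -0.0173 for matK, -0.015 for rpl33 and -0.0093 for trnK. Libraries 2 and 4 alone gave -0.0329 for matK, -0.004 for psaA and -0.0474 for trnK, libraries 1 and 3 alone gave 0.0214 for ndhC, and averaging 1 and 3 gave -0.0033 for matK and -0.0017 for trnK. Leaving out a pair gave -0.007 and -0.0021 for matK (pairs 1 and 2), 0.0397 for ndhC (pair 2), -0.0161 and -0.0133 for rpl33 (pairs 2 and 3) and -0.0077 for trnK (pair 1). Leaving out a library gave ranges of -0.1371 to 0.1465 for matK, -0.1224 to 0.1554 for ndhC, -0.0224 to 0.2375 for petN, -0.001 to 0.1239 for psaA, -0.128 to 0.125 for rpl33 and -0.079 to 0.1176 for trnK. The cause was not tested. Depth limits most the ratios of pair 2, whose counting noise of 0.212 per bin of the repeat was the highest.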
